A study of Mus musculus with 27 samples.

Results

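The genes described here are those whose RNA was higher at stage E10.5 of embryonic development than at an earlier stage in both the forelimb buds (FLBs) and the hindlimb buds (HLBs) of mouse embryos. They were chosen by their values in the limb bud libraries. A gene was taken when its group mean in CPM (reads of the gene scaled to a fixed library total) plus 0.5 was at least 2-fold that of the early limb buds in both limbs and its E10.5 mean was at least 5 CPM in both. Genes with symbols starting with Col, Hox or Pcdh were left out. Of 23279 genes in the table, 146 were members (0.627%), and 7 more passed the values but had such a symbol. Under the mirrored rule, 96 genes were lower at E10.5 in both limbs.

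RNA of 27 libraries was sequenced, in 9 groups of 3. Limb buds of both types were taken at an early stage (labelled E10.0) and at E10.5, and 3 other tissues were taken at E10.5, namely the branchial arch (BA), cardiac tissue (Ca) and the tail bud (TB). The labels give the same early stage for both limb types, whereas the study's text places the early FLBs at an earlier stage than the early HLBs, so that the interval between the stages is longer in the FLBs. All embryos were of the strain Slc:ICR, each tissue came from 3 embryos, and the cells were not sorted, so that these libraries hold every cell type of the tissue. ES-FLB and ES-HLB are mesenchyme of limb bud organoids grown from mouse embryonic stem cells of the line EB5 Hand2::GFP +/-, which carries a green fluorescent reporter for Hand2, a transcription factor gene of lateral plate mesoderm. Aggregates of this line were cultured with BMP4 and Matrigel and then with retinoic acid for ES-FLB or a retinoic acid antagonist for ES-HLB, both then with hydrocortisone (a glucocorticoid), methylcellulose and, for limited times, a BMP receptor inhibitor and Wnt3, and on day 9 the cells with reporter signal were sorted. The organoids are thus of 1 line and hold only cells with Hand2 reporter signal, in which the level of limb mesenchyme markers was 1971 to 2111 scaled CPM summed over 9 genes, against 1863 to 2079 in the E10.5 limb buds. The labels do not say that replicates came from separate litters or cultures, so that the spread and the p-values cover only the differences between these libraries. In bulk RNA, more cells of a type and more RNA per cell cannot be told apart.

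As background, a limb bud starts as mesenchyme under an ectodermal jacket. Its cells are patterned by fibroblast growth factors from the apical ridge, by Sonic hedgehog from the posterior margin and by Wnt signals from the ectoderm, and they later split into precursors of cartilage, tendon and loose connective tissue, while muscle precursors, vessels and nerves enter from outside. The members held regulators of several of these fates, such as Sox9 and Sox5 for cartilage, Scx for tendon and Osr1 and Osr2 for connective tissue, together with matrix genes, secreted guidance factors, and Shh with genes that respond to it.

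Agtr2, the gene listed as the marker of the group, encodes the angiotensin II type 2 receptor (RefSeq GRCm38.p6, chrX:21484624-21488833). Of the 146 members, 99 were protein-coding genes with a promoter in the RefSeq table used here, a window of 300 bases from 250 before to 50 after the annotated start. Of the 10 members with the largest rise in the weaker limb, 7 had such a promoter, and the 4 of these that hold the letters TATAAA or TATATAA are shown, to set the place of these letters beside the CpG content. Fibin, Tspan11 and Gm9846 hold neither. Capitals mark the letters TATAAA or TATATAA, searched on both strands.
Agtr2, chrX:21484374-21484673, plus strand: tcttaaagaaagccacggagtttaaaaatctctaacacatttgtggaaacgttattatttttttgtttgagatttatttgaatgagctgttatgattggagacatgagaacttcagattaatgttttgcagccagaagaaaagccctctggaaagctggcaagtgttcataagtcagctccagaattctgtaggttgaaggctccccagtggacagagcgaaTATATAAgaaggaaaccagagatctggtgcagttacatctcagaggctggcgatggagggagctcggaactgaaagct
Mab21l2, chr3:86548234-86548533, minus strand: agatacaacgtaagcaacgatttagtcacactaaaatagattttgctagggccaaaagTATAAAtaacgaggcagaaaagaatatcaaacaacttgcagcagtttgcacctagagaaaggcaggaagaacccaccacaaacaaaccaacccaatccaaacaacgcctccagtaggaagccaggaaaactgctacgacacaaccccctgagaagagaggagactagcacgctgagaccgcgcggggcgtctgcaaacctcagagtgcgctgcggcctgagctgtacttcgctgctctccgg
Gsc, chr12:104473187-104473486, minus strand: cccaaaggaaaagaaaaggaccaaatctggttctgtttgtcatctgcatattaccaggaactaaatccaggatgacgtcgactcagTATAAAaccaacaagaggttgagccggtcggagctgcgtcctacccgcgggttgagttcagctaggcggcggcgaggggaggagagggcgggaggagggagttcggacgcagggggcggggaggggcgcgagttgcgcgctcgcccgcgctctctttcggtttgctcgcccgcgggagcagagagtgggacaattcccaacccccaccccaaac
Dcx, chrX:143933170-143933469, minus strand: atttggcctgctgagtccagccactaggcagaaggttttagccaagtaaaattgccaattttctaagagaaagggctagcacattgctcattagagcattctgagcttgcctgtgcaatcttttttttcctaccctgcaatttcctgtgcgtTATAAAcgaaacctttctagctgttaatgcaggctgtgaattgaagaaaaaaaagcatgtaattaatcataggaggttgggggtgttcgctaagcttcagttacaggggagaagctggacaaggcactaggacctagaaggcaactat
The TATATAA of Agtr2 began 28 bases before the annotated start, whereas the TATAAA of Dcx, Gsc and Mab21l2 began 98, 164 and 192 bases before it. For each gene only the first listed start was used, and Dcx has 2 starts listed. The ratio of observed to expected CpG was 0.411 in Agtr2, 0.219 in Dcx, 0.761 in Mab21l2 and 0.934 in Gsc, and in those not shown it was 0.463 in Fibin, 0.235 in Tspan11 and 0.633 in Gm9846. Over the 99 members it was 0.6 or more in 59 promoters (59.6%), against 80.4% of 7991 other genes at 5 CPM or more in every E10.5 limb bud library and 48.3% of all 17492 protein-coding promoters in the table. TATAAA lay in 11 members (11.1%), against 5.88% of the expressed genes and 13.3% of all, and TATATAA lay in 1 (1.01%), against 1.09% and 3.38%. CAGCTG, a form of the E-box, lay in 21 members (21.2%), against 13.7% and 15.1%, and GGGCGG lay in 66 (66.7%), against 69.0% and 46.3%. These motifs were chosen after the values were seen, and the shares are a description without a test.

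All values below are CPM scaled by a trimmed mean of log ratios, and a log2 difference is on the scale of log2(scaled CPM + 0.5). The early limb bud libraries held 19642248 to 22142302 reads, the E10.5 limb buds that were used 5543756 to 5908845, and the other tissues and organoids 6569891 to 8541931. The early libraries thus differ from the E10.5 limb buds in depth and also in the share of values that are whole reads within 0.1 read (94.1 to 94.7% against 99.2 to 99.3%). Stage and library preparation cannot be told apart in the limb buds. Of the E10.5 HLBs, the second library held 3661845 reads and had no usable value for 8334 genes, among them all members on chromosomes 5, 6, 7, 8 and X, so that it was left out of every mean and E10.5 HLB has n = 2. Replicate 1 of the early HLBs also stood apart, as it was the highest of the 3 early HLB libraries in 129 of 146 members (88.4%), against 29.6% of 10433 other genes. Without it the rule gave 190 members, 144 of them shared, and the median HLB fold of the 146 members went from 2.50 to 2.86.

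The stage difference that chose the members was larger in the FLB. The fold of the rule had a median of 5.82 in FLB (2.02 to 41.4) and of 2.50 in HLB (2.00 to 59.8), and it was larger in FLB for 141 of 146 members. As the interval between the stages is longer in the FLBs, limb type and length of the interval cannot be told apart in this difference. The median level of the members was 5.15 scaled CPM in early FLB, 8.39 in early HLB, 31.8 in E10.5 FLB and 20.6 in E10.5 HLB. The members just inside the 2-fold limit were Cnp, Dact1 and Syt11, with HLB folds of 2.004, 2.008 and 2.015, and the genes just outside it were Fli1, Trp53i11 and Ccdc136, with HLB folds of 1.998, 1.986 and 1.986. At the limit of 5 CPM, Sned1, Dnm3 and Dmrt2 were just inside with HLB means of 5.0001, 5.003 and 5.19 deposited CPM. Just outside were Glis3 with an FLB mean of 4.77, Ppargc1a with an HLB mean of 4.66 and Hbb-b2 with an FLB mean of 4.64 deposited CPM.

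The second E10.5 HLB library did not enter the rule. In it, 90 members kept a value, and all 90 were higher there than in each early HLB library, with 58 of them at least 2-fold above the early HLB mean. Among 6648 other genes with a value there, 8 (0.12%) were that far above, but these genes had not been chosen for a rise. The median fold of the 90 members was 2.15 in this library and 2.36 in replicates 1 and 3, and the lowest was 1.43. The early HLB libraries on the other side of this fold are those of the rule, and the other 56 members have no value in this library.

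**Figure D1:**
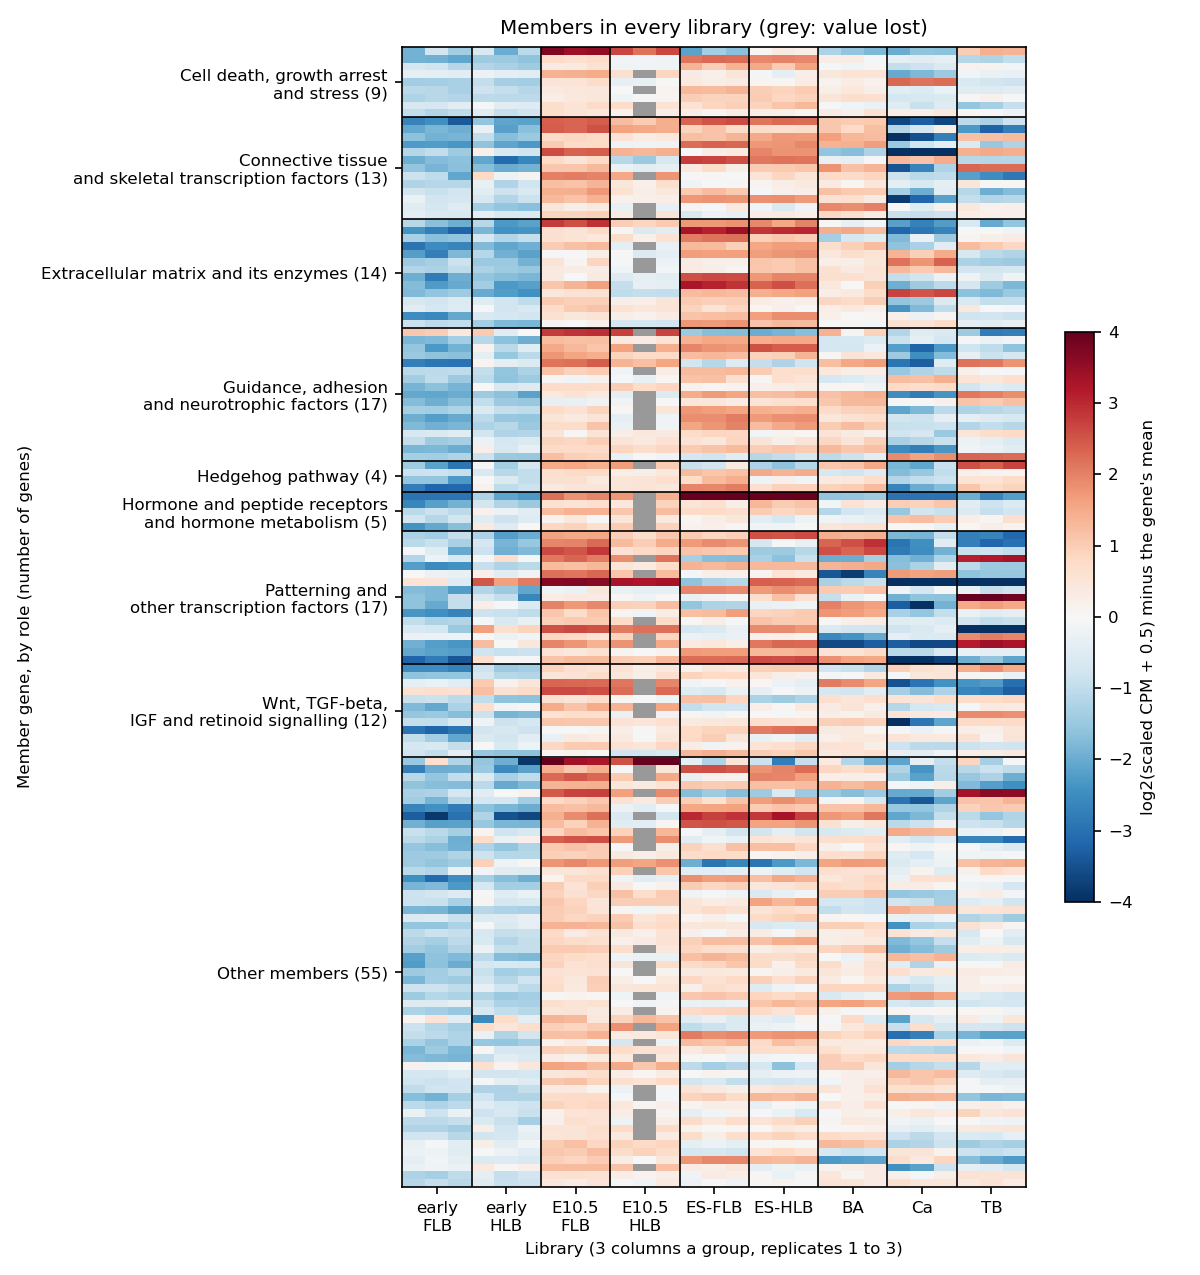
Colors show log2(scaled CPM + 0.5) minus the gene's mean over libraries for the 146 members (rows, by role) in 27 libraries (columns, 3 a group), and grey marks values lost in an E10.5 HLB library. The early limb bud columns are mostly blue because the members were chosen for it, and outside the limb buds, which were not used in the choice, organoid columns are redder than those of Ca and TB for most roles.

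Outside the limb buds the members split by tissue. In ES-FLB 89 members were at least 2-fold above both early limb buds, in ES-HLB 90, in BA 87, in TB 46 and in Ca 42. Among 10186 other genes at 5 CPM or more in both E10.5 limb buds, 6.43% were that far above in ES-FLB, 5.63% in ES-HLB, 1.86% in BA, 1.37% in TB and 8.25% in Ca. The median level of the members was 27.7 scaled CPM in ES-FLB, 26.8 in ES-HLB, 20.5 in BA, 14.8 in TB and 10.6 in Ca. Since the members were selected on low early levels, these counts are descriptions without a test. The group with the highest level was E10.5 FLB for 43 members, ES-FLB for 35, ES-HLB for 23, Ca for 14, TB for 12, BA for 10 and E10.5 HLB for 9.

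Set against the limb buds of the same type, ES-FLB lay between the early and E10.5 means for 69 members, above both for 65 and below both for 12. ES-HLB lay between for 45, above for 82 and below for 19. Of the other genes, 17.2% lay between the stage means in ES-FLB, 33.1% above both and 49.6% below both. In ES-HLB, 10.9% lay between, 34.8% above and 54.3% below, but these genes were not chosen for a distance between the stages. The median member had gone 89.5% of the log2 step from early to E10.5 in ES-FLB and 124% in ES-HLB, and these steps span intervals of different length. At least 2-fold above E10.5 were 23 members in ES-FLB and 40 in ES-HLB, against 4.44% and 5.86% of the other genes. At least 2-fold below were 33 and 27 members, against 5.64% and 6.08%. In both ES types, 21 members were at least 2-fold above E10.5, among them the matrix genes Vcan, Lama2 and Sned1, the cadherin gene Fat4, the transcription factor genes Osr1 and Nfia, and Agtr2. Conversely, 20 were at least 2-fold below E10.5 in both, among them Shh, Evx1, Sim2, Tfap2b and Cyp26b1, which encodes an enzyme that degrades retinoic acid. How many other genes were that far above or below in both ES types was not counted. The members named from these counts were chosen after their values were seen. The 7 members below the early mean in both ES types were 5730457N03Rik, Cyp26b1, Dcx, Evx1, Prnd, Rassf9 and Rpl34.

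**Figure D2:**
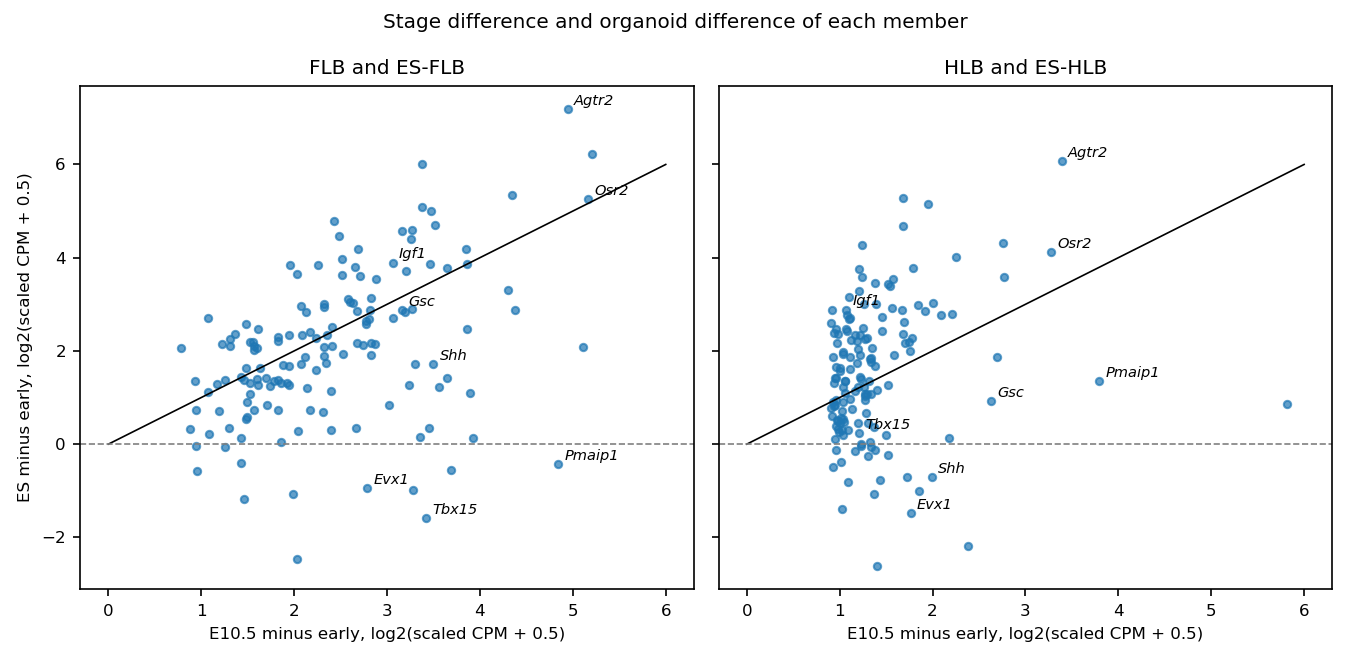
Each point is a member, with the E10.5 minus early difference of the limb bud on the x axis and the ES minus early difference on the y axis, both in log2(scaled CPM + 0.5), for FLB (left) and HLB (right). Points above the solid line of equality (65 in FLB, 82 in HLB) were higher in the organoid mesenchyme than in the E10.5 limb bud, and points below the dashed line at 0 (12 and 19) were lower than in the early limb bud.

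Agtr2 was the member with the largest difference between the organoids and each of BA, TB and Ca. Its level was 0 in each early FLB library, 1.14, 0.386 and 0.287 scaled CPM in the early HLBs, 17.4, 12.9 and 14.5 in the E10.5 FLBs, and 12.3 and 9.89 in the E10.5 HLBs. It was 70.9, 70.02 and 76.99 in ES-FLB, 75.3, 72.03 and 74.3 in ES-HLB, 0.792, 0.821 and 0.955 in BA, 0 in each Ca library and 0.504, 0.118 and 0.347 in TB. Every organoid library was thus above every embryonic library, and the order of the groups ran from the organoids through the E10.5 limb buds to tissues with few reads or none. The ES types overlapped, with a difference of 0.03 ± 0.18 (SE, limma adjusted p = 0.95) on the log2 scale. The mean of both organoid types was higher than BA by 5.77 ± 0.16 (SE, limma adjusted p = 5.3e-20) and than TB by 6.51 ± 0.16 (SE, limma adjusted p = 1.8e-21). Against Ca, where no read was counted, it was at least 573-fold higher, taking 3 reads over the 3 Ca libraries as the floor, which covers counting error only.

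The other genes of the renin-angiotensin system did not all follow Agtr2. Of 14 listed genes 9 were tested. In ES-LB, which is the average over both organoid types, Enpep was called higher than in BA, whereas Enpep and Mtus1 were called lower than in Ca. Enpep, an aminopeptidase that acts on angiotensin II, was 12.9 ± 0.945 scaled CPM in ES-FLB, 3.67 ± 0.399 in ES-HLB, 0.275 ± 0.185 in BA and 26.6 ± 1.39 in Ca (mean ± SD, n = 3). Agtr1a, the type 1 receptor gene, had group means from 1.06 in early HLB to 5.05 in Ca. Agt, the gene of the precursor of angiotensin, had no group mean above 0.231, which is under the floor of 3 reads in every Ca library. The 5 genes with the pattern most like Agtr2 over the 9 group means were Elmod2 (Pearson r = 0.983), Pkd2 (0.976), Adamts17 (0.967), Zfp933 (0.961) and Wrn (0.960), out of 12397 genes compared, and none of them was a member. Over so few groups, which differ in tissue and preparation, such values are a description.

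**Figure D3:**
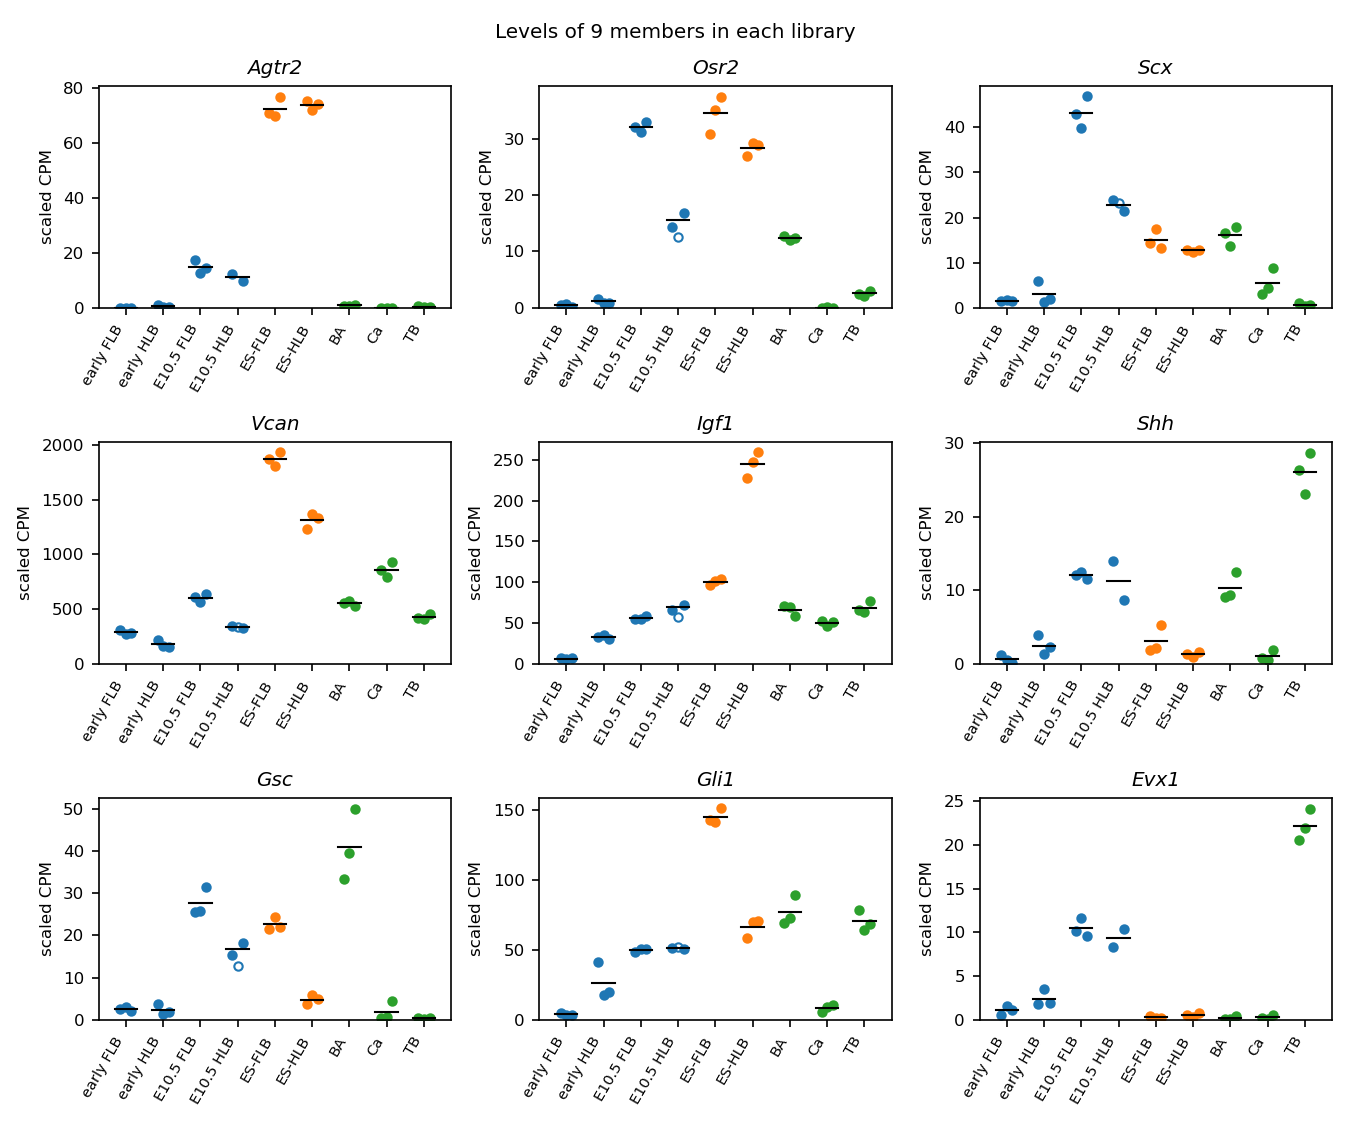
Dots show the scaled CPM of 9 members in each library and bars the group means (y axes start at 0), with embryonic limb buds in blue, organoid mesenchyme in orange and BA, Ca and TB in green, and an open dot for the second E10.5 HLB library where it has a value. Agtr2 and Vcan were highest in the organoids, Gsc in BA, Gli1 in ES-FLB, and Shh and Evx1 in TB.

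For tests, the 15 libraries not used by the rule (ES-FLB, ES-HLB, BA, Ca and TB) were compared with limma over 14280 genes, and a gene was called when the adjusted p was below 0.05 and the difference at least 2-fold. All 146 members could be tested. Comparisons with ES-LB share the organoid libraries and those with BA share the BA libraries, so that their results are not independent of each other. Of the members, 70 were higher in ES-LB than in TB and 13 lower, where 11.9% and 10.1% of all genes tested were called. Against Ca, 84 were higher and 10 lower (14.6% and 17% of all genes). Against BA, 38 were higher and 14 lower (9.67% and 6.74%). BA was itself higher than TB in 51 members and lower in 16 (4.18% and 5.38%), and higher than Ca in 76 and lower in 18 (9.9% and 16.4%). The median log2 difference of the members was 0.26 against BA, 0.92 against TB and 1.29 against Ca for ES-LB, and 0.58 against TB and 1.16 against Ca for BA, whereas over all genes it was between -0.03 and 0.04.

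**Figure D4:**
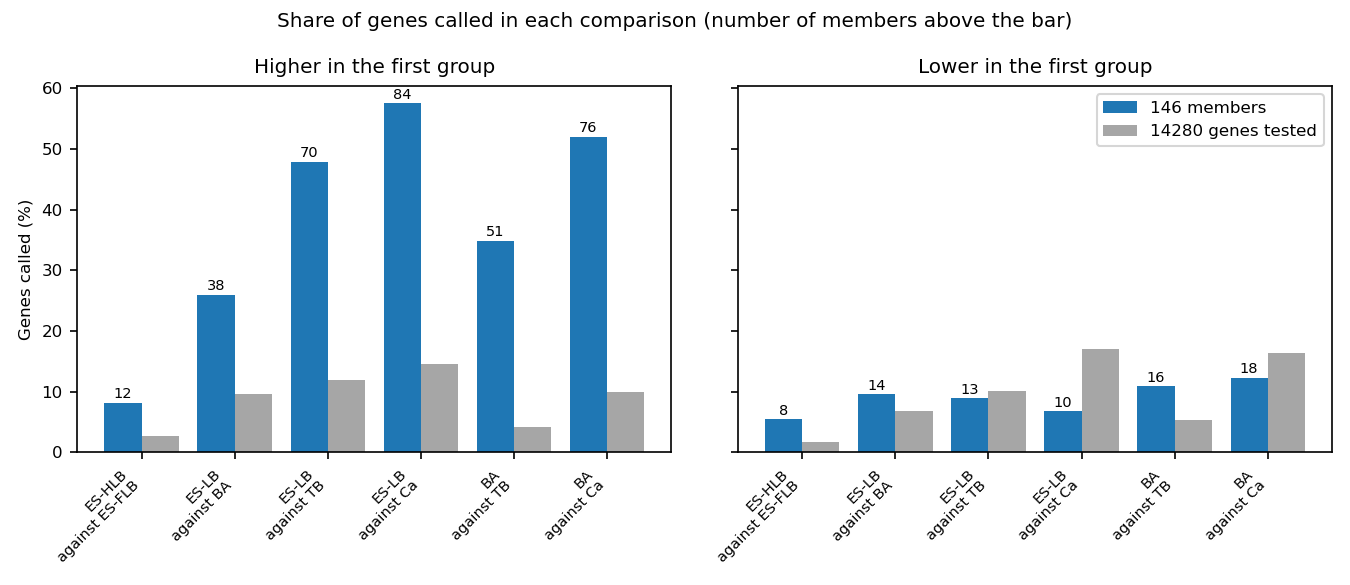
Bars give the share (%) of the 146 members and of the 14280 genes tested that limma called higher (left) or lower (right) in the first group of each comparison, with the number of members above the bar. The share higher in ES-LB than in Ca was 57.5% of the members and 14.6% of all genes.

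Markers of other cell types moved with these comparisons. The summed level of 8 endothelial markers was 28.5 to 50.8 scaled CPM in the organoid libraries, 282.8 to 432.1 in BA and TB and 945.9 to 1008 in Ca. That of 5 erythroid markers was 5.21 to 158.1 in the organoids and 2774 to 6487 in BA and TB. That of 6 heart markers was 16894 to 20145 in Ca and 1.44 to 96.6 in all other libraries, and that of 4 branchial arch markers was 365.7 to 384.5 in BA and 6.42 to 44.9 elsewhere. The list of 22 immediate early genes summed to 1656 to 2746 in the organoids and to 470.6 to 1021 in the embryonic libraries. None of these lists held a member, and their part in the members' differences was not tested. In the limb buds, a hypoxia response list of 21 genes summed to 7795 to 8460 in the early FLBs and to 2766 to 2991 in the E10.5 FLBs, and to 4139 to 5198 and 3478 to 3639 in the HLBs. The sum of 8 macrophage markers was 1.64 to 2.54 and 20.9 to 22.6 in the FLBs and 9.15 to 10.97 and 15.1 to 17.1 in the HLBs. The part of these in the choice of members was likewise not tested.

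Of 14 members that encode extracellular matrix and its enzymes, 12 were higher in ES-LB than in TB and none lower. Against BA, 8 were higher and none lower, and against Ca, 9 were higher and 2 lower. Among all 146 members, 47.9%, 26.0% and 57.5% were higher than in TB, BA and Ca, and 8.90%, 9.59% and 6.85% lower. Among all genes tested, 11.9%, 9.67% and 14.6% were higher, and 10.1%, 6.74% and 17% lower. Vcan, the large proteoglycan of loose mesenchyme, had the highest level of all members in the organoids, in BA, in Ca and in TB. It was 1873, 1806 and 1938 scaled CPM in ES-FLB, 1233, 1367 and 1336 in ES-HLB, 551.6, 578.01 and 524.7 in BA, 858.5, 795.6 and 930.7 in Ca and 421.7, 410.1 and 454.3 in TB. All organoid libraries were above all others, by 1.51 ± 0.05 (SE, limma adjusted p = 5.1e-15) on the log2 scale against BA and by 0.86 ± 0.05 (SE, limma adjusted p = 4.9e-12) against Ca, which is below 2-fold. In the limb buds Vcan was 269.7 to 309.6 in early FLB and 567.3 to 634.2 in E10.5 FLB.

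Enpp2, which encodes autotaxin, the secreted enzyme that makes lysophosphatidic acid, was 138.9 to 172.1 scaled CPM in ES-FLB, 117.7 to 134.5 in ES-HLB, 37.6 to 46.8 in BA, 13.8 to 15.7 in TB and 1.30 to 2.05 in Ca. None of these groups overlapped with another, and the difference between ES-LB and Ca was 6.03 ± 0.10 (SE, limma adjusted p = 3.5e-24). Gsn, an actin-severing protein with a secreted form, and Loxl1, an elastin cross-linking enzyme, were the matrix members lower in ES-LB than in Ca. Their levels in Ca were 85.8 to 96.7 and 35.5 to 53.8, against 34.6 to 45.9 and 11.5 to 23.4 in the organoids. Fibin, which encodes a secreted protein of the limb bud and fin, was 51.1 to 65.03 in E10.5 FLB, 16.7 to 17.4 in E10.5 HLB, 25.2 to 33.7 over both ES types and 6.57 to 8.49 in BA. Its organoid level thus lay between those of the E10.5 limb types and above BA.

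Of 13 members that encode transcriptional regulators of skeletal and connective tissue, 10 were higher in ES-LB than in Ca with none lower. Against TB, 7 were higher and 1 lower, and against BA, 4 were higher and 1 lower. Among all 146 members, 57.5%, 47.9% and 26.0% were higher than in Ca, TB and BA, and 6.85%, 8.90% and 9.59% lower. Among all genes tested, 14.6%, 11.9% and 9.67% were higher, and 17%, 10.1% and 6.74% lower. Osr2 was 0.109 to 0.635 scaled CPM in early FLB, 31.2 to 33.04 in E10.5 FLB, 14.3 to 16.7 in E10.5 HLB, 30.8 to 37.5 in ES-FLB, 26.97 to 29.3 in ES-HLB, 12.1 to 12.7 in BA, 2.12 to 3.01 in TB and 0 to 0.142 in Ca. ES-FLB overlapped with the E10.5 FLBs, ES-HLB lay above the E10.5 HLBs, and ES-LB was above BA by 1.30 ± 0.13 (SE, limma adjusted p = 5.5e-09). In Ca a total of 1 read of Osr2 was counted, which gives a ratio of ES-LB to Ca of 725 with an exact 95% interval of 130.0 to 28663 for counting error only.

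Scx, the tendon progenitor factor, behaved otherwise. It was 39.9 to 46.8 scaled CPM in E10.5 FLB, 21.4 to 23.99 in E10.5 HLB, 13.2 to 17.4 in ES-FLB, 12.5 to 12.9 in ES-HLB, 13.6 to 18.02 in BA, 3.11 to 8.87 in Ca and 0.353 to 1.13 in TB. The organoids lay below every E10.5 limb bud library and overlapped with BA, with a difference of -0.21 ± 0.24 (SE, limma adjusted p = 0.46). Sox9, the cartilage master regulator, was called in none of the 6 comparisons, with means of 130.9 in E10.5 FLB, 82.4 in E10.5 HLB, 54.5 in ES-FLB, 65.9 in ES-HLB, 68.2 in BA, 64.4 in TB and 40.3 in Ca. Nfia, a gene of the nuclear factor I family, was 81.4 to 90.97 in ES-FLB and 57.99 to 60.7 in ES-HLB, against 18.9 to 23.2 in E10.5 FLB and 9.85 to 12.3 in BA. Of a list of 33 skeletal and connective tissue regulators, 8 of them members, 19 were higher in ES-LB than in Ca and 4 lower (14.6% and 17% of all genes), 16 were higher than in TB and 5 lower (11.9% and 10.1%), and 12 were higher than in BA and 5 lower (9.67% and 6.74%). The list's median log2 difference was 1.19 against Ca, 0.99 against TB and 0.09 against BA.

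Of the Hedgehog members, the ligand and a responding gene differed in pattern. Shh, the ligand of the posterior limb margin, notochord and floor plate, was 12.1, 12.5 and 11.5 scaled CPM in E10.5 FLB, 13.9 and 8.63 in E10.5 HLB, 1.94, 2.204 and 5.34 in ES-FLB, 1.39, 0.991 and 1.55 in ES-HLB, 9.05, 9.38 and 12.4 in BA, 26.3, 23.1 and 28.7 in TB and 0.778, 0.568 and 1.91 in Ca. Every organoid library was below every E10.5 limb bud, BA and TB library, and ES-LB was lower than BA by 2.12 ± 0.26 (SE, limma adjusted p = 1.0e-06) on the log2 scale. Gli1, a target and effector of the pathway, was 141.6 to 151.3 in ES-FLB, 58.6 to 70.4 in ES-HLB, 69.2 to 89.04 in BA, 64.1 to 78.8 in TB and 48.4 to 51.5 in the E10.5 limb buds. ES-FLB thus lay above BA and TB, ES-HLB overlapped with both, and all organoid libraries lay above the E10.5 limb buds. Gli1 was lower in ES-HLB than in ES-FLB by 1.13 ± 0.20 (SE, limma adjusted p = 0.0026). Boc, a co-receptor, was 110.9 to 146.1 in the organoids and at most 89.2 in any other library. Of 31 tested genes of the FGF and hedgehog list, 15 were higher in ES-LB than in Ca and 3 lower (14.6% and 17% of all genes), 5 were higher than in TB and 8 lower (11.9% and 10.1%), and 3 were higher than in BA and 5 lower (9.67% and 6.74%).

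Of 17 patterning and other transcription factor members, 14 were higher in ES-LB than in Ca and 1 lower. Against TB, 11 were higher and 5 lower, and against BA, 5 were higher and 3 lower. Among all 146 members, 57.5%, 47.9% and 26.0% were higher than in Ca, TB and BA, and 6.85%, 8.90% and 9.59% lower. Among all genes tested, 14.6%, 11.9% and 9.67% were higher, and 17%, 10.1% and 6.74% lower. Gsc, a homeobox gene of the arches and proximal limb, was 33.3 to 50.01 scaled CPM in BA, 25.5 to 31.5 in E10.5 FLB, 21.4 to 24.2 in ES-FLB, 3.67 to 5.80 in ES-HLB, 0.389 to 4.37 in Ca and 0.235 to 0.504 in TB. Its BA level was above TB by 5.58 ± 0.49 (SE, limma adjusted p = 2.7e-06). Mab21l1 was 0.648 to 1.23 in Ca, 66.8 to 81.7 in BA and 106.2 to 146.8 in the organoids. Tbx18, a T-box gene of the epicardium and of limb mesenchyme, was 85.2 to 91.8 in Ca, 125.01 to 138.8 in E10.5 FLB and 1.52 to 3.94 in BA, and it was lower in BA than in Ca by 4.96 ± 0.21 (SE, limma adjusted p = 3.1e-11).

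The 12 members with their highest level in TB included genes of the posterior axis. Evx1, a homeobox gene of the primitive streak, was 20.5 to 24.2 scaled CPM in TB, 8.37 to 11.7 in the E10.5 limb buds, 0.243 to 0.833 in the organoids and 0.113 to 0.546 in BA and Ca. The neighboring long noncoding RNA 5730457N03Rik (RefSeq Evx1os) was 19.8 to 24.4 in TB and 0.121 to 0.849 in the organoids. Exons of both overlap on opposite strands and the strand setting of the counting is not given in the sources used here, so that their reads cannot be told apart. Dmrt2, a gene of the dermomyotome, was 83.8 to 100.5 in TB and 1.04 to 12.7 in the organoids, BA and Ca. The 7 myogenic markers summed to 178.7 to 206.3 in TB and 11.1 to 38.8 in those groups, and their part in the Dmrt2 level was not tested.

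Of 17 guidance, adhesion and neurotrophic members, 12 were higher in ES-LB than in Ca and 1 lower. Against TB, 7 were higher and 2 lower, and against BA, 4 were higher and 2 lower. Among all 146 members, 57.5%, 47.9% and 26.0% were higher than in Ca, TB and BA, and 6.85%, 8.90% and 9.59% lower. Among all genes tested, 14.6%, 11.9% and 9.67% were higher, and 17%, 10.1% and 6.74% lower. Ntn1, the axon attractant netrin-1, was 203.1 to 213.7 scaled CPM in TB, 131.4 to 157.8 in Ca, 78.1 to 97.2 in E10.5 FLB and 18.9 to 31.7 in the organoids and BA. Dcx, a microtubule protein of migrating neurons, was 87.1 to 95.4 in E10.5 FLB and 80.95 to 82.95 in E10.5 HLB, but 2.66 to 4.11 in the organoids and 13.02 to 32.4 in BA. The sum of 7 neuron markers other than Dcx went the other way, with 17.8 to 27.6 in the E10.5 limb buds, 64.4 to 126.3 in the organoids and 67.6 to 329.4 in BA. Cxcl12, a chemokine, was 287.7 to 335.6 in BA, 278.7 to 311.4 in TB and 167.7 to 218.9 in the organoids, a difference from BA below 2-fold.

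Of 9 members with a role in cell death, growth arrest or stress, 6 were higher in ES-LB than in Ca and 1 lower. Against TB, 4 were higher and 1 lower, and against BA, 3 were higher with none lower. Among all 146 members, 57.5%, 47.9% and 26.0% were higher than in Ca, TB and BA, and 6.85%, 8.90% and 9.59% lower. Among all genes tested, 14.6%, 11.9% and 9.67% were higher, and 17%, 10.1% and 6.74% lower. Pmaip1, which encodes the cell death protein Noxa, was 99.5 to 122.7 scaled CPM in E10.5 FLB and 58.6 to 58.8 in E10.5 HLB, against 1.82 to 5.60 in the early limb buds, 1.57 to 3.11 in ES-FLB, 9.24 to 11.3 in ES-HLB, 2.15 to 3.39 in BA and 17.6 to 24.01 in TB. The E10.5 limb buds did not overlap with any other group. Trp53inp1, another target of p53, was 135.2 to 173.6 in the organoids, 57.1 to 59.99 in E10.5 FLB and 15.2 to 43.7 in BA, Ca and TB, and was higher in ES-LB than in BA by 1.90 ± 0.07 (SE, limma adjusted p = 1.4e-17). Ddit4, which is induced by stress and glucocorticoids, was 168.99, 132.4 and 175.9 in ES-FLB and 191.7, 137.97 and 203.8 in ES-HLB, against 63.9, 58.8 and 68.9 in BA, a difference of 1.38 ± 0.14 (SE, limma adjusted p = 3.3e-06). Both genes and the sum of the immediate early genes were higher in every organoid library than in every embryonic library. Taken singly, 21 immediate early genes were tested. In ES-LB 15 of them were called higher than in BA and 0 lower, 15 higher than in TB and 1 lower, and 10 higher than in Ca and 2 lower. The part of handling, sorting or the hydrocortisone of the organoid medium in these differences was not tested.

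Some members are uncertain for reasons of counting. Gm9846, which had the largest fold in its weaker limb of all members (17.9), is the gene Rps27rt in RefSeq, a near-identical copy of the ribosomal protein gene Rps27. It was 366.2, 231.9 and 217.1 scaled CPM in E10.5 FLB and 132.5 and 435.6 in E10.5 HLB, but 1.01 to 35.6 in the early limb buds and 2.83 to 40.5 in all other groups. Rps27 itself had means of 513.5 in early FLB and 553.5 in early HLB but 176.02 in E10.5 FLB and 188.9 in E10.5 HLB, and how reads were split between these genes was not tested. Rpl34, another ribosomal protein gene, was 29.2, 280.5 and 130.1 in the early HLBs. Mab21l2 and Lrba are both members and have exons that overlap on opposite strands, so that their reads may be shared. Exons of 39 members overlapped exons of a gene on the opposite strand in the GENCODE annotation, in which 143 of the 146 members were found.

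Between the organoid types, 12 members were higher in ES-HLB than in ES-FLB and 8 lower, where 2.65% and 1.63% of all genes tested were called. Tbx15, a T-box gene of limb and skeleton, was 6.77, 8.95 and 9.58 scaled CPM in ES-FLB and 114.8, 114.3 and 106.3 in ES-HLB, a difference of 3.67 ± 0.21 (SE, limma adjusted p = 4.7e-12). Shox2, a gene of proximal limb growth, was 9.44, 10.1 and 12.4 in ES-FLB and 58.7, 59.01 and 52.001 in ES-HLB, a difference of 2.36 ± 0.16 (SE, limma adjusted p = 3.8e-11). Igf1, an insulin-like growth factor, was 96.4, 102.04 and 103.9 in ES-FLB and 227.3, 247.9 and 259.3 in ES-HLB, a difference of 1.27 ± 0.08 (SE, limma adjusted p = 7.9e-11). The HLBs of the embryo held more Igf1 as well at E10.5, with 66.03 to 72.5 against 54.6 to 58.9. The early HLBs, which are of a later stage than the early FLBs, held 30.6 to 34.9 against 5.50 to 6.84. Sim2 was lower in ES-HLB by 2.42 ± 0.21 (SE, limma adjusted p = 5.4e-09) and Shisa2, an inhibitor of Wnt and FGF signaling, by 2.40 ± 0.09 (SE, limma adjusted p = 3.3e-16). Cyp26b1 was 23.5 to 30.1 in ES-FLB and 28.9 to 34.1 in ES-HLB, which overlapped. Retinoic acid and its antagonist had been given for limited times that ended before sorting on day 9.

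In the embryo at E10.5, 101 members were lower in both HLB libraries than in every FLB library and 11 were higher, where 19% and 33.1% of 10332 genes at 5 scaled CPM were so ordered. Between the organoids, 50 members were lower in every ES-HLB library than in every ES-FLB library, 46 were higher and 50 overlapped, where 17.7% of the same 10332 genes were lower in every library and 17.7% higher. Without overlap in either pair of groups, 30 members were ordered in opposite ways in E10.5 limb buds and organoids and 44 in the same way, against 6.59% and 13.7% of these genes. Of the 20 members called between the organoid types, 9 were ordered in opposite ways, against 19.9% of 171 such genes called. The counts that take in E10.5 rest on libraries the rule used and are a description.

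**Figure D5:**
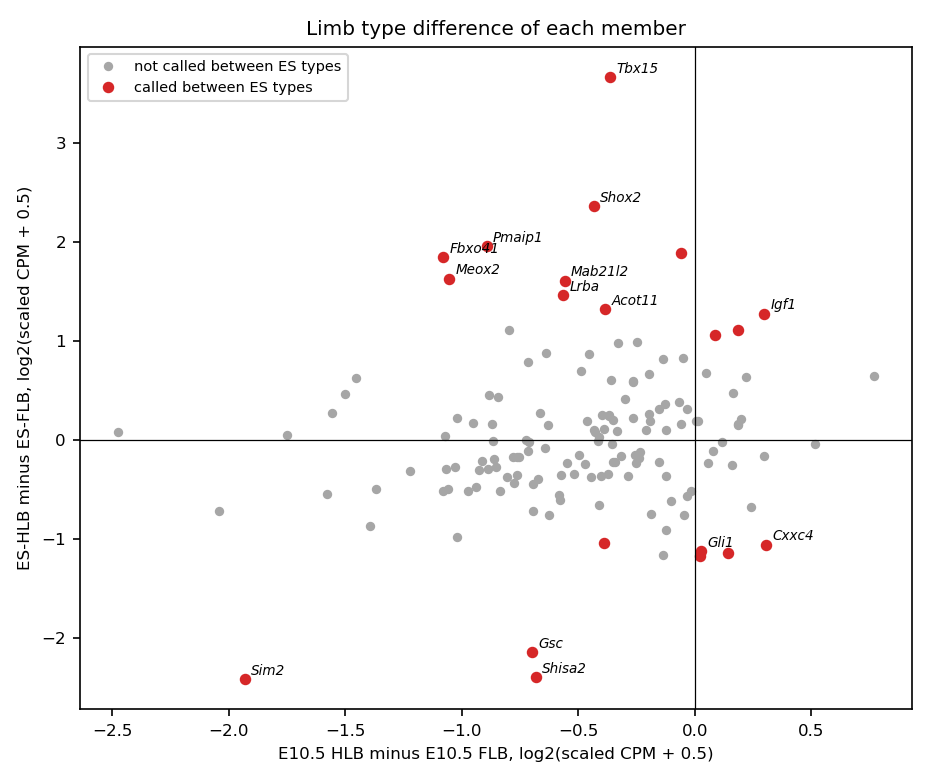
Each point is a member, with the E10.5 HLB minus FLB difference on the x axis and the ES-HLB minus ES-FLB difference on the y axis, both in log2(scaled CPM + 0.5), and the 20 members that limma called between the ES types are in red. Tbx15, Shox2, Pmaip1, Fbxo41 and Meox2 lie at the upper left, higher in ES-HLB but lower in E10.5 HLB, whereas Sim2, Gsc and Shisa2 lie at the lower left, lower in both.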

How the data were processed

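From total RNA, 27 stranded mRNA libraries were sequenced as single-end reads. The authors mapped them to mm10 with HISAT2 2.0.4, counted reads per gene with Cuffdiff (Cufflinks 2.1.1 in the submitters' processing notes) and deposited CPM (reads per gene scaled to the same total in each library). Depth was recovered from the spacing of low CPM values. As values were not whole reads throughout, no count model was fitted. CPM were scaled by an unweighted trimmed mean of log ratios. Of genes, those that reached 1 CPM in 3 or more of the 15 libraries were tested with limma 3.58.1 in R 4.3.3 (trend and robust estimation) on log2(scaled CPM + 0.5), with Benjamini-Hochberg adjustment over 14280 genes. In simulated data for BA against TB, adjusted p below 0.05 without the 2-fold limit found all 200 changed genes. It called 6 others out of 13954 tested. The changed genes had means of 5 CPM or more and a spread set in advance. Recovery under the 2-fold limit and at lower levels was thus not tested. Intervals and floors of 3 reads cover counting error only. Members and lists were chosen with earlier results of these data known. Roles were assigned after values were seen. Genes named are Agtr2, the 10 with the largest smaller fold, members of fixed lists, the 3 largest called changes without overlap in each direction and comparison, the 3 highest in each group, those beside the limits and those most like Agtr2. Others were chosen after their values were seen. Some genes that this rule would name are not reported here. RefSeq sequences and positions are of GRCm38.p6, and exon overlaps are from GENCODE vM21. Where groups share replicate numbers, correlations of deviations were between -0.08 and 0.10, and 1 of 30 pairs was over 0.1.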

Additional observations from a re-analysis of the deposited data

Results flagged for a closer look

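For 9 of the 20 members called between ES-HLB and ES-FLB, every ES-HLB library lay on one side of every ES-FLB library and both E10.5 HLB libraries lay on the other side of every E10.5 FLB library. The difference between the organoid and the embryonic limb type difference (ES-HLB minus ES-FLB, less E10.5 HLB minus E10.5 FLB, in log2) was 4.03 for Tbx15, 2.93 for Fbxo41, 2.85 for Pmaip1, 2.80 for Shox2, 2.68 for Meox2, 2.17 for Mab21l2, 2.03 for Lrba, 1.71 for Acot11 and -1.36 for Cxxc4. These differences were not tested, as the E10.5 libraries had served to choose the members and E10.5 HLB has n = 2. The opposite order is that of E10.5 only. Every early HLB library was above every early FLB library for Tbx15 (60.2 to 114 against 13.1 to 27.9 deposited CPM). So it was for Shox2 (21.4 to 45.1 against 4.57 to 8.68) and Meox2 (7.33 to 15.3 against 4.38 to 6.01). Lrba and Cxxc4 kept the E10.5 order in the early limb buds, whereas Fbxo41, Pmaip1, Mab21l2 and Acot11 overlapped there. Mab21l2 and Lrba may share reads. Of the remaining called members, 5 were ordered the same way in the organoids and at E10.5, and 6 had overlapping E10.5 libraries. Of 171 genes at 5 scaled CPM that were called between the organoid types, 19.9% were ordered in opposite ways without overlap.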

How the results depend on the processing

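Of 244 values under alternatives, 235 were within 1.5 times the reported count, including all 104 that left out 1 library. With no limit on the fold, the members called were 30 higher and 35 lower in ES-HLB against ES-FLB, 68 higher and 35 lower in ES-LB against BA, 32 lower against TB, 25 lower against Ca, and 85 higher in BA against TB. The number of members was 39 at 3-fold and 221 at a lowest E10.5 mean of 1 CPM, and it was 117 on scaled CPM, all of them among the 146. Leaving out 1 library at a time gave 128 to 190 members. Replicate numbers do not pair the libraries. With the replicate number as a block, 12 members were higher and 8 lower in ES-HLB against ES-FLB, and the calls of the other comparisons kept within 1.5 times. Planned tests with edgeR and DESeq2 were not run, because values were not whole reads throughout. The place of ES-HLB without early HLB replicate 1 was an alternative added after seeing the data. The E10.5 limb buds are the least deep, with 3 reads equal to 0.501 to 0.558 CPM, which limits members near 5 CPM.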
